A study of Mus musculus with 8 samples.

Results

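The genes described here are 34 mouse genes whose transcripts mark retinal photoreceptors and retinal nerve terminals, followed in RNA from lens capsules. They were taken by symbol from the 54532 genes of a read count table, of which 15857 had enough counts to be tested. All 34 were in the table and all 34 were tested. By role they comprised 11 genes used mainly by rods, 6 used mainly by cones, 14 used by both kinds of photoreceptor and 3 synaptic genes shared with other neurons. Their levels were compared in 4 libraries from ASC capsules and 4 libraries from sham capsules, all from wild-type mice of the C57BL/6 strain. The mice were 6 to 8 weeks old, and capsules were taken 7 days after the operation. In the ASC model, which the submitters describe as injury-induced and as a model of fibrotic cataract, a hypodermic needle opened the middle of the anterior lens capsule by way of the cornea. In the sham operation the cornea was cut and the capsule stayed closed. The replicates are labelled as biological, but how many mice or capsules went into each is not stated in the labels, so the p-values below measure the spread between these libraries.

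Photoreceptors turn light into an electrical signal with a cascade in which an opsin activates the G protein transducin, transducin activates a cyclic GMP phosphodiesterase, and the drop in cyclic GMP closes a cation channel in the outer segment. Rods and cones build this cascade from closely related but separate genes, and the transcription factors Crx, Nrl and Nr2e3 are known for directing that program in the retina. Photoreceptors release glutamate from a ribbon synapse, whose vesicles carry proteins found in many neurons. The lens lies in front of the retina, apart from it, and a lens capsule preparation contains lens epithelium and, where attached, fibre cells.

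Library totals ranged from 14420494 to 21141582 counts, and a level below is in counts scaled to a common library size (CPM) after scaling by the trimmed mean of M values (TMM). The tissue label was checked against lens genes. Cryaa, the alpha A crystallin of the lens, averaged 152224 ± 33345 CPM in ASC capsules and 143593 ± 27888 CPM in sham capsules (SD, n = 4 each). Foxe3, a transcription factor of the lens epithelium, lay between 265 and 392 CPM in all 8 libraries. Sham library 3 had higher photoreceptor sums than the other 3 sham libraries, so results are given with and without it.

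Photoreceptor transcripts were present in every lens capsule library, and their summed level spread more widely among the sham libraries than the group means lay apart. Summed over the 34 genes, the level was 1915, 3207, 3465 and 3597 CPM in ASC libraries 1 to 4, against 1103, 1223, 4076 and 1943 CPM in sham libraries 1 to 4. ASC library 1 was well below the other ASC libraries, and sham library 3 was above every ASC library. The sums averaged 3046 ± 771 CPM in ASC capsules and 2086 ± 1378 CPM in sham capsules (SD, n = 4 each). Without sham library 3 the sham mean was 1423 ± 454 CPM (SD, n = 3). The 34 genes took between 0.112% and 0.470% of the counts of a library.

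The 11 rod genes summed to 886, 1519.9, 1634 and 1712 CPM in ASC libraries 1 to 4, against 475, 527, 1895 and 923 CPM in sham libraries 1 to 4. The 14 genes of both photoreceptor types summed to 910.3, 1468, 1602 and 1663 CPM in ASC libraries 1 to 4, against 524, 596, 1922 and 916 CPM in sham libraries 1 to 4. The cone genes made up a far smaller sum, 56.8, 70.4, 82.5 and 65.1 CPM in ASC libraries 1 to 4, against 35.6, 27.3, 88.7 and 51.3 CPM in sham libraries 1 to 4. These 3 sums put the libraries in much the same order, with sham library 3 highest in each. The synaptic sum was 62.1, 148, 146 and 157 CPM in ASC libraries 1 to 4, against 68.04, 72.9, 169.8 and 52.8 CPM in sham libraries 1 to 4. Sham library 3 was again highest, but the lowest synaptic sum was that of sham library 4. In bulk RNA, fewer photoreceptors in a preparation and less RNA per photoreceptor cannot be told apart.

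**Figure D1:**
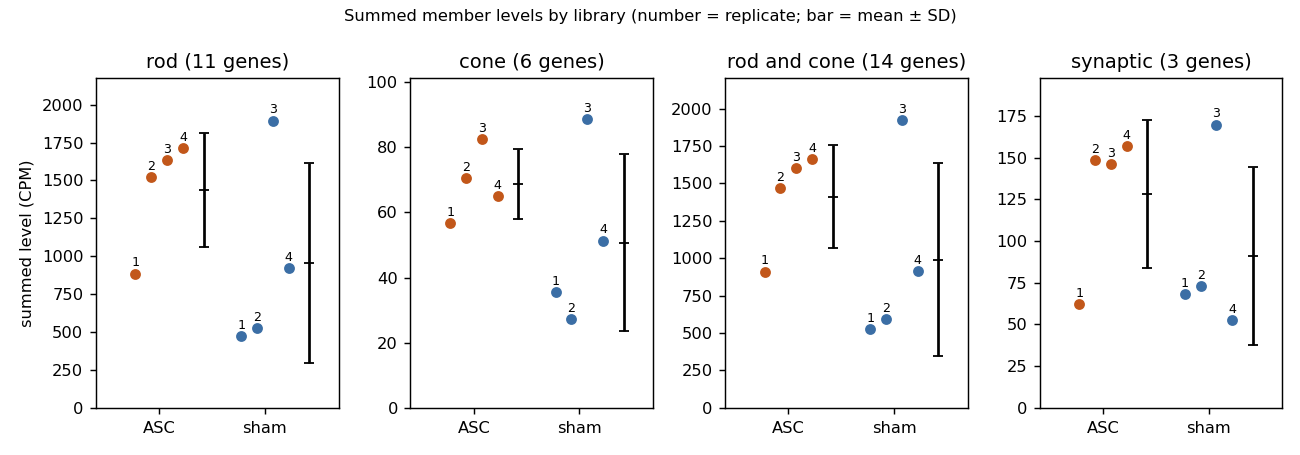
Summed CPM (y axis) of the rod, cone, shared photoreceptor and synaptic genes in each ASC and sham library, with points numbered by replicate and bars for the mean ± SD (n = 4 each). Sham library 3 is the highest point of all 8 in each panel, while sham libraries 1 and 2 are the lowest in the rod and shared panels.

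The DNA before several of these genes shows a letter pattern tied to the factor Crx, and examples with and without it follow. RefSeq promoters (mouse build GRCm38.p6, 250 bases before to 50 bases after the start) were matched by symbol for 25 of the 34 genes. The core homeodomain letters TAATCC, bound by CRX, were searched on both strands, where the other strand reads GGATTA. They were found in 9 of 23 promoters of photoreceptor genes (39.13%), against 1935 of 27025 promoters of all genes (7.16%). Both synaptic genes in the table, Syp and Sv2b, held them too, 2 of 2. The letters TGCTGA, part of the longer element bound by NRL, read TCAGCA on the other strand. They were found in 4 of the 23 (17.39%), against 19.12% of all promoters. The matches of the 2 motifs do not overlap in these windows, and the capitals mark each match. Rbp3 (chr14:33953753-33954052, plus strand), Crx (chr7:15879906-15880205, minus strand), Cngb1 (chr8:95306536-95306835, minus strand), Sag (chr1:87803430-87803729, plus strand) and Gnat2 (chr3:108092816-108093115, plus strand) are shown as promoters with the CRX letters, from rod, cone and shared genes. Opn1sw (chr6:29380464-29380763, minus strand) is shown as a cone gene whose window lacks the CRX letters. Each is written 5′ to 3′ on the strand of the gene.
Rbp3: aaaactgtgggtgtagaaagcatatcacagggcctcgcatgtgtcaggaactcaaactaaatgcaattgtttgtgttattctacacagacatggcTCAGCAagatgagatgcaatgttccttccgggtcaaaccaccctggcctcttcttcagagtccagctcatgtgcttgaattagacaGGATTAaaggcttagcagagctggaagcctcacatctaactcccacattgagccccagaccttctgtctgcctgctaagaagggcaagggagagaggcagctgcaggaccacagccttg
Crx: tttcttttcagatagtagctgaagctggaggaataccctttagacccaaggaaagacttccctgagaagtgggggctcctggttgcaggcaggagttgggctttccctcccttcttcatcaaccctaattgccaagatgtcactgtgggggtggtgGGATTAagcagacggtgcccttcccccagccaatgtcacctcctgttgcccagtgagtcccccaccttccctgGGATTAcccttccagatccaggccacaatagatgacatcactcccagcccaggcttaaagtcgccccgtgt
Cngb1: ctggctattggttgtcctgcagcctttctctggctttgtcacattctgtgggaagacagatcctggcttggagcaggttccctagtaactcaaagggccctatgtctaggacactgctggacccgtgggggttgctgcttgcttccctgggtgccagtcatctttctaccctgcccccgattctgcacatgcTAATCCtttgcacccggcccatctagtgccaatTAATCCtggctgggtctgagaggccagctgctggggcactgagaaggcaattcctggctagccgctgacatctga
Sag: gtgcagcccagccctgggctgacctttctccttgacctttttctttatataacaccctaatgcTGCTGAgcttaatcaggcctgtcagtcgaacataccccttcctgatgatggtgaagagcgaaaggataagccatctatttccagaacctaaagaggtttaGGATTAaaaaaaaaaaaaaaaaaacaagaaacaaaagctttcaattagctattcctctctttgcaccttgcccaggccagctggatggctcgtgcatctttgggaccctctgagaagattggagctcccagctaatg
Gnat2: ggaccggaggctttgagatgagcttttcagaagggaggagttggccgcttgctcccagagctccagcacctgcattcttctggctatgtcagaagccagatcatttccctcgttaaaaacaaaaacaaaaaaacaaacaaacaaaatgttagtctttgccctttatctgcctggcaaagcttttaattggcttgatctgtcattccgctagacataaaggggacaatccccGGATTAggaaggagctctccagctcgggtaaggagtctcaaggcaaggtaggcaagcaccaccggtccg
Opn1sw: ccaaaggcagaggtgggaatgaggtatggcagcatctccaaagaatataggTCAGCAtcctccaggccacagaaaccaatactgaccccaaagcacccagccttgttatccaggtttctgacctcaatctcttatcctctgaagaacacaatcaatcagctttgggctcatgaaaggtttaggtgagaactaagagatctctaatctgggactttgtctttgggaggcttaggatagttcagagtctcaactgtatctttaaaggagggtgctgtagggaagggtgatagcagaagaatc
The windows of Crx and Cngb1 each held 2 copies of the CRX letters. In Rbp3, Sag and Gnat2 the letters lay at -69, -87 and -19 from the start. The windows of Nrl, Prph2, Slc24a1, Pdc and Rom1, whose levels followed the rod sum closely, held none of the CRX letters. A match of letters is a description of the window and was not tested as a binding site.

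Among the rod genes, Gnat1 was the most abundant. Gnat1 encodes the alpha subunit of rod transducin. Its level was 361, 600.4, 679.8 and 750.4 CPM in ASC libraries 1 to 4, against 178, 203, 713 and 319 CPM in sham libraries 1 to 4. The groups overlapped, with sham library 3 at the level of the ASC libraries 3 and 4 and the other 3 sham libraries below every ASC library. Per kilobase of exon, Gnat1 averaged 157 CPM per kb over the 8 libraries, ahead of Prph2 at 75.8 and Rom1 at 63.1 CPM per kb. The edgeR quasi-likelihood test gave Gnat1 a log2 fold change 0.76, SE 0.49, adjusted p = 0.535. Its partner Gngt1, the gamma subunit of rod transducin, had 11.2, 33.7, 29.7 and 23.7 CPM in ASC libraries 1 to 4, against 8.60, 12.9, 27.8 and 18.7 CPM in sham libraries 1 to 4. ASC library 1 lay inside the sham range for Gngt1 (log2 fold change 0.54, SE 0.46, edgeR adjusted p = 0.650).

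The rod phosphodiesterase genes had nearly the same profile as each other. Pde6a, a catalytic subunit, had 76.1, 127, 151 and 160.4 CPM in ASC libraries 1 to 4, against 45.8, 43.7, 189.7 and 84.2 CPM in sham libraries 1 to 4. Pde6b, the other catalytic subunit, had 76.4, 121, 131 and 124 CPM in ASC libraries 1 to 4, against 44.7, 45.97, 183 and 93.02 CPM in sham libraries 1 to 4. For both genes sham library 3 was the highest of all 8 libraries and sham libraries 1 and 2 were the lowest. The Pde6a to Pde6b ratio was 0.996, 1.05, 1.16 and 1.30 in ASC libraries 1 to 4, against 1.03, 0.951, 1.03 and 0.905 in sham libraries 1 to 4, a narrow range beside the spread of either gene. Pde6g, the inhibitory subunit, had 49.4, 92.4, 99.4 and 118 CPM in ASC libraries 1 to 4, against 29.8, 35.9, 108 and 59.4 CPM in sham libraries 1 to 4. Its highest library was ASC library 4. Log2 fold changes of Pde6a, Pde6b and Pde6g were 0.50, 0.30 and 0.62.

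Downstream in the cascade, Cnga1 and Cngb1 encode the subunits of the rod cyclic GMP gated channel and Slc24a1 the exchanger that removes calcium. Cnga1 had 24.4, 41.6, 44.1 and 35.4 CPM in ASC libraries 1 to 4, against 12.3, 18.04, 60.2 and 34.99 CPM in sham libraries 1 to 4. Cngb1 had 30.6, 50.9, 58.6 and 56.9 CPM in ASC libraries 1 to 4, against 21.7, 20.6, 75.2 and 34.8 CPM in sham libraries 1 to 4. Slc24a1 had 46.7, 73.5, 85.1 and 82.5 CPM in ASC libraries 1 to 4, against 23.1, 28.7, 116 and 46.7 CPM in sham libraries 1 to 4. In each of these genes sham library 3 exceeded all ASC libraries. Sag, the rod arrestin that shuts off the activated opsin, had 127, 219, 207 and 203 CPM in ASC libraries 1 to 4, against 68.4, 71.3, 250.4 and 147 CPM in sham libraries 1 to 4. The highest Sag value was that of sham library 3, followed by ASC library 2. The fold changes of Cnga1, Cngb1, Slc24a1 and Sag were 0.22, 0.37, 0.42 and 0.49 on the log2 scale.

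The transcription factor Nrl, known for directing precursors to the rod fate, followed the rod sum more closely than any other gene of the 34. Its level was 58.9, 115, 118 and 117 CPM in ASC libraries 1 to 4, against 34.3, 37.2, 132 and 64.3 CPM in sham libraries 1 to 4. ASC libraries 2, 3 and 4 lay within a few CPM of each other while ASC library 1 was near the level of sham library 4. The SD over libraries of its log2 ratio to the summed rod level was 0.0584. Nr2e3, a nuclear receptor that acts with Nrl to repress cone genes in rods, had 23.9, 46.02, 31.01 and 41.03 CPM in ASC libraries 1 to 4, against 8.93, 9.98, 38.5 and 20.7 CPM in sham libraries 1 to 4. Its highest library was ASC library 2 and the groups overlapped (log2 fold change 0.87, SE 0.51, edgeR adjusted p = 0.497). Nr2e3 shares 1.81% of its exon length with a noncoding gene on the same strand in GENCODE M21.

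**Figure D2:**
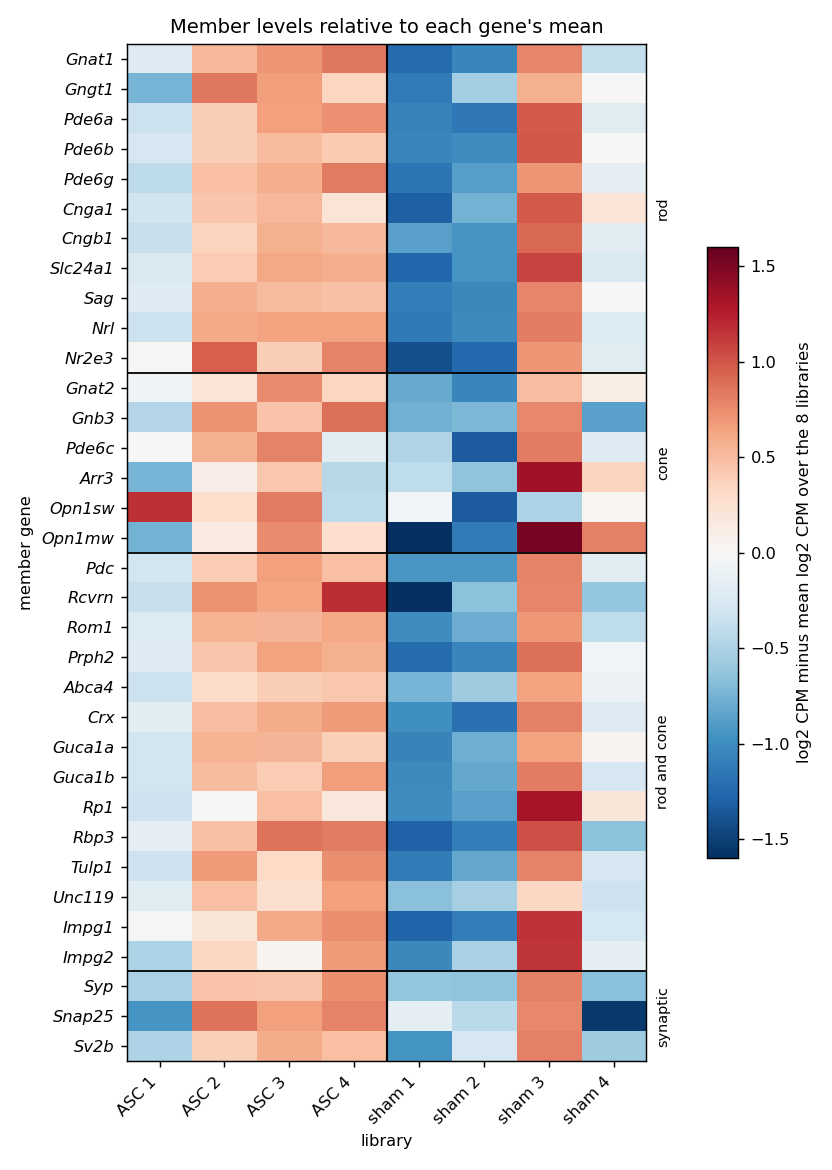
Log2 CPM of each of the 34 genes (rows, grouped by role) minus its mean over the 8 libraries (columns, the ASC libraries left of the sham libraries). The column of sham library 3 is high in most rows, and those of sham libraries 1 and 2 are low. Opn1sw has the row that departs most from the rod genes.

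Cone genes were present at lower levels, and less uniformly. Gnat2, the cone transducin alpha subunit, had 7.32, 8.78, 12.9 and 9.70 CPM in ASC libraries 1 to 4, against 4.35, 3.68, 10.7 and 8.25 CPM in sham libraries 1 to 4. Gnb3, a transducin beta subunit of cones that bipolar cells also use, had 12.3, 27.97, 23.4 and 31.5 CPM in ASC libraries 1 to 4, against 10, 10.4, 29.1 and 9.36 CPM in sham libraries 1 to 4. Pde6c, the cone phosphodiesterase catalytic subunit, had 4.46, 6.56, 7.68 and 3.91 CPM in ASC libraries 1 to 4, against 3.18, 1.77, 7.93 and 3.86 CPM in sham libraries 1 to 4. In all 3 genes the groups overlapped, and for Gnb3 sham library 3 was far above the other sham libraries. The log2 fold changes of Gnat2, Gnb3 and Pde6c were 0.53, 0.69 and 0.44.

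The cone opsins did not follow each other. Opn1mw, the middle-wavelength opsin, had 3.12, 5.80, 8.89 and 6.33 CPM in ASC libraries 1 to 4, against 1.73, 2.42, 15.1 and 9.21 CPM in sham libraries 1 to 4. Its highest library was sham library 3 and its lowest sham library 1, an 8.75-fold span that was the widest of the 34 genes and rests on as few as 37 counts. Opn1sw, the short-wavelength opsin, had 25.4, 13.7, 20.1 and 8.42 CPM in ASC libraries 1 to 4, against 10.98, 4.48, 7.93 and 11.6 CPM in sham libraries 1 to 4. The groups overlapped, and Opn1sw was highest in ASC library 1, the library in which most of the other genes were lowest among the ASC libraries. Opn1sw was the single gene of the 34 with an unadjusted edgeR p under 0.05, and it did not pass adjustment over all genes (log2 fold change 0.96, SE 0.40, adjusted p = 0.326, 95% confidence interval 0.0266 to 1.89). The Opn1sw to Opn1mw ratio was 8.14, 2.36, 2.26 and 1.33 in ASC libraries 1 to 4, against 6.35, 1.85, 0.524 and 1.26 in sham libraries 1 to 4. That ratio spanned 15.5-fold.

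Opn1sw shares 15.5% of its exon length with Calu, a gene on the opposite strand, in GENCODE M21. Strand use in counting is not given, so reads of the pair cannot be told apart there. Calu had 195, 177, 181 and 179.8 CPM in ASC libraries 1 to 4, against 158, 210.2, 172 and 170.4 CPM in sham libraries 1 to 4, a level above that of Opn1sw in every library, and its highest library was sham library 2. Arr3, the cone arrestin, had 4.20, 7.59, 9.53 and 5.19 CPM in ASC libraries 1 to 4, against 5.33, 4.52, 17.9 and 9.06 CPM in sham libraries 1 to 4. The groups overlapped in Arr3, with sham library 3 highest. Its fold change was negative and did not pass (log2 fold change -0.47, SE 0.47, edgeR adjusted p = 0.712), as did Opn1mw (log2 fold change -0.23, SE 0.72, adjusted p = 0.922). Without sham library 3 the log2 fold change of Arr3 was 0.0871.

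Among the genes of both photoreceptor types, Prph2 and Rom1 had the highest levels per kilobase of exon. Prph2, a tetraspanin that shapes the disc rim, had 175, 274, 316 and 302 CPM in ASC libraries 1 to 4, against 86.4, 97.9, 373 and 197 CPM in sham libraries 1 to 4. Rom1, its rim partner, had 74.7, 129, 127 and 134 CPM in ASC libraries 1 to 4, against 43.9, 50.4, 141 and 65.7 CPM in sham libraries 1 to 4. Abca4, the transporter that clears retinoid by-products from discs, had 97.2, 151, 162 and 166 CPM in ASC libraries 1 to 4, against 73.6, 83.03, 194 and 115 CPM in sham libraries 1 to 4. All 3 were highest in sham library 3, and sham libraries 1 and 2 were lowest. Rbp3, which carries retinoids between photoreceptors and pigment epithelium, had 166, 254, 335 and 323 CPM in ASC libraries 1 to 4, against 74.7, 85.6, 375 and 117 CPM in sham libraries 1 to 4. Within the sham group sham library 3 lay far above the other libraries for Rbp3. The log2 fold changes of Prph2, Rom1, Abca4 and Rbp3 were 0.50, 0.62, 0.31 and 0.72.

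Regulators of calcium and transducin varied over the libraries in a similar way. Pdc, phosducin, which binds transducin beta and gamma subunits, had 65.4, 107, 127 and 112 CPM in ASC libraries 1 to 4, against 42.3, 42.5, 141 and 71.3 CPM in sham libraries 1 to 4. Rcvrn, the calcium sensor recoverin, had 25.5, 53.99, 50.8 and 74.5 CPM in ASC libraries 1 to 4, against 10.4, 20.9, 56.7 and 21.4 CPM in sham libraries 1 to 4. Unc119, a chaperone that carries lipid-bound transducin, had 90.01, 143, 123 and 161 CPM in ASC libraries 1 to 4, against 64.8, 71.00, 129 and 81.7 CPM in sham libraries 1 to 4. Rcvrn was highest in ASC library 4, as was Unc119, and Pdc in sham library 3. Unc119 had the narrowest span of the 34 genes, 2.49-fold, and its edgeR result (log2 fold change 0.58, SE 0.25, adjusted p = 0.340) was the next nearest to the threshold after that of Opn1sw. Guca1a and Guca1b, activators of the guanylate cyclase that restores cyclic GMP, had log2 fold changes of 0.47 and 0.49. Both were highest in sham library 3. The values of Pdc and Rcvrn were 0.48 and 0.90.

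Crx, the homeodomain factor that turns on photoreceptor genes, had 35.2, 56.3, 60.1 and 63.7 CPM in ASC libraries 1 to 4, against 20.1, 17.5, 69.4 and 34.5 CPM in sham libraries 1 to 4. Sham library 3 was above all 4 ASC libraries and the other 3 sham libraries were below them. Tulp1, needed for protein traffic to the outer segment, had 41.3, 83.5, 64.9 and 86.5 CPM in ASC libraries 1 to 4, against 23.9, 29.3, 90.2 and 42.9 CPM in sham libraries 1 to 4. Rp1, a microtubule protein of the photoreceptor axoneme, had 48.1, 60.7, 84.5 and 68.5 CPM in ASC libraries 1 to 4, against 30.3, 33.01, 150.0 and 69.2 CPM in sham libraries 1 to 4. Rp1 was far higher in sham library 3 than in any ASC library, and its fold change was slightly negative (log2 fold change -0.11, SE 0.55, edgeR adjusted p = 0.954). Impg1 and Impg2, proteoglycans of the matrix between photoreceptors, were also highest in sham library 3. Impg1 reached 28.1 CPM there, against 5.19 to 10.3 CPM in the other sham libraries, and its 4 ASC values ran 12.3, 14.4, 19.2 and 21.1 CPM in libraries 1 to 4. Impg2 had 9.80, 17.5, 14.4 and 22.3 CPM in ASC libraries 1 to 4, against 6.82, 9.70, 30.8 and 12.6 CPM in sham libraries 1 to 4. The groups overlapped in both, and the log2 fold changes of Crx, Tulp1, Impg1 and Impg2 were 0.61, 0.57, 0.44 and 0.09.

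The synaptic genes tracked the photoreceptor genes less closely. Syp, the vesicle protein synaptophysin, had 18.7, 36.9, 36.6 and 44.9 CPM in ASC libraries 1 to 4, against 17.5, 17.1, 46.9 and 16.9 CPM in sham libraries 1 to 4. Snap25, a SNARE protein of vesicle fusion, had 18.97, 66.6, 57.4 and 63.6 CPM in ASC libraries 1 to 4, against 32.8, 27.04, 62.5 and 12.6 CPM in sham libraries 1 to 4. Sv2b, a vesicle glycoprotein, had 24.5, 44.9, 52.1 and 48.2 CPM in ASC libraries 1 to 4, against 17.8, 28.7, 60.4 and 23.3 CPM in sham libraries 1 to 4. Sham library 3 was highest for Syp and Sv2b and below 2 ASC libraries for Snap25, whose highest library was ASC library 2. Snap25 was lowest in sham library 4, a library with intermediate rod levels. Part of the Syp exon length, 16.8%, overlaps an antisense gene in GENCODE M21, and for Sv2b the share is 0.561%. Reads of these pairs cannot be told apart without strand. The log2 fold changes of Syp, Snap25 and Sv2b were 0.47, 0.61 and 0.38.

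None of the 34 genes passed an adjusted p of 0.05 in the edgeR test of ASC against sham, 0 of 34, where 1.02% of all tested genes passed. At an unadjusted p under 0.05 the count was 1 of 34, where 14.7% of all tested genes passed. DESeq2 and limma-voom also called 0 of 34 after adjustment, and at an unadjusted p under 0.05 they counted 2 (Opn1sw and Unc119) and 14. Of all tested genes 3.74% passed adjustment with DESeq2 and 1.01% with limma-voom, and 14.3% and 17.2% had an unadjusted p under 0.05. The log2 fold change was positive for 31 of 34 genes, where 51.4% of all tested genes had a positive value, and its median was 0.50, against 0.01 over all tested genes. The exceptions were Arr3, Opn1mw and Rp1. The median was 0.50 for rod genes, 0.48 for cone genes, 0.50 for genes of both types and 0.47 for synaptic genes. The 95% intervals of single genes reached from -1.93 to 2.27, so changes of either direction remained within the error for nearly all of them. The genes share the same libraries and are not independent replicates of the contrast.

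A single sham library bore on these values. Sham library 3 was set aside because it was high in these same genes, so higher fold changes without it follow from that choice. Without sham library 3, the log2 fold change was positive for 34 of 34 genes, where 50.6% of all genes tested were positive, and the median was 0.99. The edgeR count then was 27 of 34 at an unadjusted p under 0.05, where 14.5% of all genes tested passed, and 0 of 34 after adjustment, where 0.673% passed. The lowest adjusted p was 0.0595, for Rbp3 (log2 fold change 1.54). Leaving out ASC library 1 in its place gave a median of 0.66, with 32 of 34 values positive. The median over all genes tested in that fit was 0.00228. The edgeR count without ASC library 1 was 1 of 34 at an unadjusted p under 0.05. For that fit the shares of all genes that were positive or had such a p are not given, so these counts stand without a background. Sham library 3 was the highest of all 8 libraries for 24 of 34 genes, where it was highest for 11.3% of all tested genes. Sham library 1 was the lowest for 24 of 34, where it was lowest for 12.5% of all tested genes. Of the ASC libraries, library 1 was the lowest for 32 of 34 genes, where the share was 28.6% of all tested genes. For 0 of 34 genes did all ASC values lie on one side of all sham values, where 9.06% of tested genes separated.

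**Figure D3:**
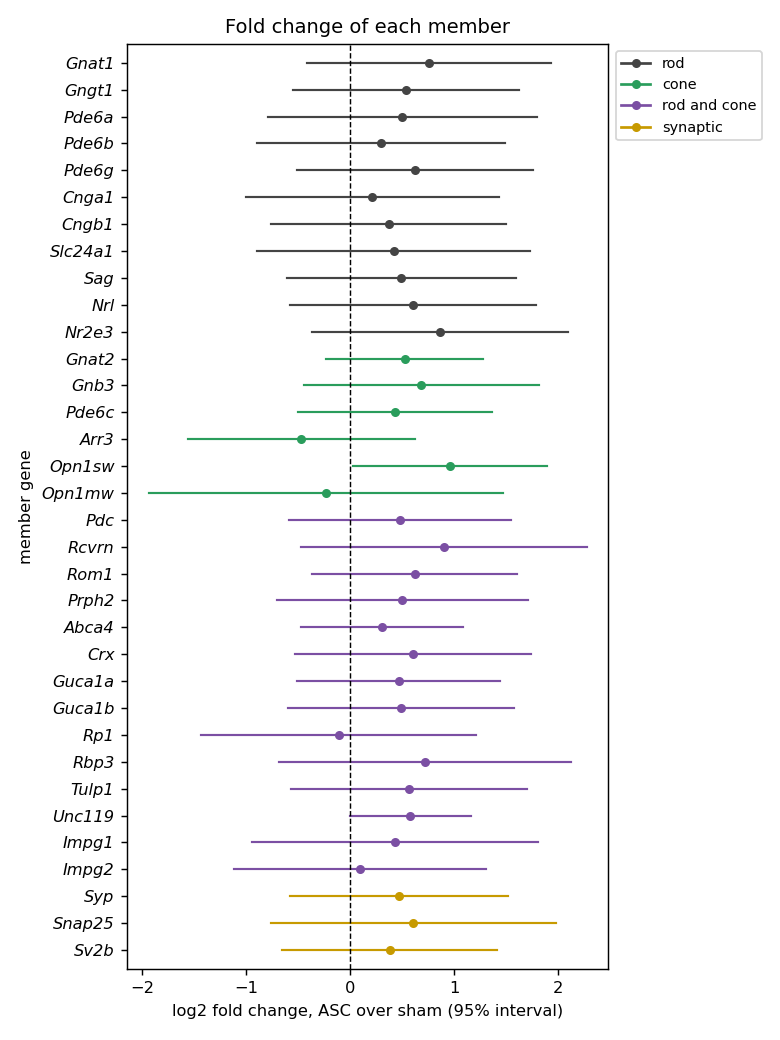
Log2 fold change of ASC over sham (x axis) for each of the 34 genes (y axis, coloured by role), with 95% confidence intervals from the edgeR fit. Points lie right of 0 for 31 genes. The interval of Opn1sw stays right of 0, from 0.0266 to 1.89, before adjustment over all genes.

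Set against the rod genes of the same library, rod genes and genes of both types varied less in proportion than synaptic and cone genes. The SD over libraries of the log2 ratio to the summed rod level had a median of 0.160 for rod genes, 0.200 for genes of both types, 0.348 for synaptic genes and 0.511 for cone genes. It was 0.0894 for Prph2 and 0.731 for Snap25. For 33 of the 34 genes the ratio to the rod sum varied less than the ratio to summed lens fibre markers or summed lens epithelium markers. The share of all tested genes for which this holds was not computed. Opn1sw was the exception, with an SD of 0.972 against the rod sum and 0.501 against the lens fibre sum. For a rod gene, the sum was taken over the other 10 rod genes.

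Of the 23 genes outside the rod group, 3 had a proportion to the rod sum that did not overlap between the groups, and all 3 were lower in ASC capsules. The share of all tested genes with such a separation was 1.84% in either direction and 1.55% lower in ASC. A gene that does not follow the rod genes carries the spread of the rod sum in this ratio. The log2 ratio of Calu to the rod sum, for example, had an SD of 0.810 over the libraries. The share is therefore no chance rate for the genes described here. Per 100 CPM of rod genes, the cone arrestin Arr3 had 0.474, 0.499, 0.583 and 0.303 CPM in ASC libraries 1 to 4, against 1.12, 0.858, 0.944 and 0.982 CPM in sham libraries 1 to 4. Arr3 averaged 0.465 ± 0.118 CPM in ASC capsules and 0.976 ± 0.109 CPM in sham capsules per 100 rod CPM (SD, n = 4 each), and it was lower in every ASC library than in every sham library. Rp1 had 5.43, 3.99, 5.17 and 3.997 CPM in ASC libraries 1 to 4, against 6.37, 6.26, 7.92 and 7.49 CPM in sham libraries 1 to 4 per 100 rod CPM. Impg2 had 1.11, 1.15, 0.880 and 1.30 CPM in ASC libraries 1 to 4, against 1.44, 1.84, 1.62 and 1.36 CPM in sham libraries 1 to 4 per 100 rod CPM. Sham library 3 lay with the other sham libraries in these 3 proportions, although its rod sum was the highest. The proportions were not tested, since the genes were picked out after their values were seen.

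Of the 11 rod genes, 3 did not overlap between the groups when set against the summed level of the other rod genes. Against the full rod sum the share of all tested genes was 1.84%, which is no chance rate for genes that follow that sum. For Pde6b and Cngb1 the sum of the other rod genes holds Gnat1, so the 3 separations are not independent. Gnat1 was higher in ASC capsules, at 68.9, 65.3, 71.2 and 78.01 per 100 CPM in ASC libraries 1 to 4, against 59.8, 62.5, 60.4 and 52.9 per 100 CPM in sham libraries 1 to 4. Pde6b was lower in ASC capsules, at 9.44, 8.67, 8.70 and 7.80 per 100 CPM in ASC libraries 1 to 4, against 10.4, 9.56, 10.7 and 11.2 per 100 CPM in sham libraries 1 to 4. Cngb1 was lower in ASC capsules, at 3.57, 3.47, 3.72 and 3.44 per 100 CPM in ASC libraries 1 to 4, against 4.79, 4.06, 4.13 and 3.92 per 100 CPM in sham libraries 1 to 4. Of each 100 CPM of the full rod sum, Gnat1 made up 40.8, 39.5, 41.6 and 43.8 CPM in ASC libraries 1 to 4, against 37.4, 38.5, 37.6 and 34.6 CPM in sham libraries 1 to 4, so a proportion to that sum is not independent of Gnat1. Per 100 rod CPM, the cone genes without Opn1sw summed to 3.54, 3.73, 3.82 and 3.31 CPM in ASC libraries 1 to 4, against 5.17, 4.33, 4.26 and 4.30 CPM in sham libraries 1 to 4. Every ASC value of that cone sum was below every sham value. With Opn1sw included, the cone sum was 6.41, 4.63, 5.05 and 3.80 CPM in ASC libraries 1 to 4 per 100 rod CPM. In sham libraries 1 to 4 that full sum was 7.48, 5.18, 4.68 and 5.56 CPM, so the groups overlapped. Neither cone proportion was tested.

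Several other proportions overlapped between the groups. Snap25 per 100 rod CPM was 2.14, 4.38, 3.51 and 3.71 in ASC libraries 1 to 4, against 6.89, 5.13, 3.30 and 1.36 in sham libraries 1 to 4, with its highest value in sham library 1 and its lowest in sham library 4. Abca4 per 100 rod CPM was 10.97, 9.94, 9.94 and 9.71 in ASC libraries 1 to 4, against 15.5, 15.8, 10.2 and 12.5 in sham libraries 1 to 4. Sham libraries 1 and 2, which had the lowest rod sums, had the highest Abca4 proportions, while sham library 3 lay beside the ASC libraries. Unc119 per 100 rod CPM was 10.2, 9.43, 7.50 and 9.41 in ASC libraries 1 to 4, against 13.6, 13.5, 6.79 and 8.84 in sham libraries 1 to 4, again highest in sham libraries 1 and 2. The Gnat1 to Gnat2 ratio, rod over cone transducin, was 49.3, 68.4, 52.8 and 77.3 in ASC libraries 1 to 4, against 40.9, 55.1, 66.8 and 38.7 in sham libraries 1 to 4. Its groups overlapped.

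**Figure D4:**
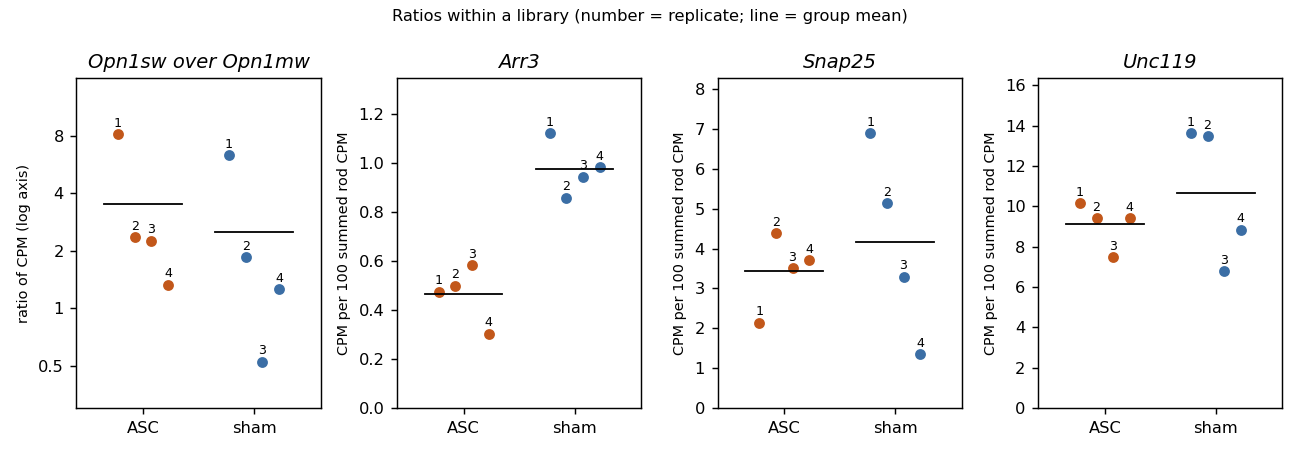
The Opn1sw to Opn1mw ratio (log axis) and the levels of Arr3, Snap25 and Unc119 in CPM per 100 CPM of summed rod genes (y axes) in each ASC and sham library, numbered by replicate, with lines at the group means. Arr3 is lower in all 4 ASC libraries than in all 4 sham libraries, and the other 3 panels overlap.

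Many photoreceptor genes outside the 34 were also highest in sham library 3. Of 42 genes on that list 41 were tested and edgeR called 0, with 5 at an unadjusted p under 0.05, while limma-voom called 0. Of all tested genes 14.7% had an unadjusted edgeR p under 0.05. DESeq2 called 2, Otx2 (log2 fold change 1.18) and Tulp2 (1.59), where it called 3.74% of all tested genes. The median log2 fold change was 0.13. In sham library 3, 29 of the genes were highest, where the share of all tested genes was 11.3%. Gnb1, a transducin beta subunit used widely outside the retina, had 286, 399, 383 and 403 CPM in ASC libraries 1 to 4, against 219, 229, 393 and 261 CPM in sham libraries 1 to 4. Grk1, the kinase of the rod opsin, had 62.00, 83.4, 91.8 and 96.4 CPM in ASC libraries 1 to 4, against 42.6, 43.4, 166 and 65.3 CPM in sham libraries 1 to 4. Grk1 was highest in sham library 3, and Gnb1 in ASC library 4. Without sham library 3 edgeR called 2 of the list, Reep6 (log2 fold change 1.25) and Samd7 (1.31), where 0.673% of all genes tested passed.

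Among 26 further presynaptic genes edgeR called 0, with 3 at an unadjusted p under 0.05, and DESeq2 and limma-voom called 0. The share of all tested genes at an unadjusted edgeR p under 0.05 was 14.7%. Their median log2 fold change was 0.28. Sypl, a synaptophysin-like vesicle protein of many tissues, averaged 97.6 ± 10.9 CPM in ASC capsules and 97.5 ± 10.1 CPM in sham capsules. Vamp2, a vesicle SNARE, averaged 98.5 ± 13.1 CPM in ASC capsules and 91.4 ± 18.05 CPM in sham capsules (SD, n = 4 each for both genes). Slc17a7, the glutamate transporter that fills photoreceptor vesicles, had 53.5, 93.3, 89.7 and 124 CPM in ASC libraries 1 to 4, against 31.9, 29.7, 121 and 41.6 CPM in sham libraries 1 to 4. Slc17a7 ordered the libraries much as the rod genes did, while Sypl and Vamp2 varied little. Without ASC library 1, Rab3a passed (log2 fold change 0.79), where 101 of 16239 genes tested passed.

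Markers of the inner retina were present too. Summed over 12 bipolar cell genes, the level was 145, 246, 230.3 and 261 CPM in ASC libraries 1 to 4, against 182, 176, 259 and 153 CPM in sham libraries 1 to 4. Trpm1 alone averaged 115 ± 32.4 CPM in ASC capsules and 97.4 ± 16.5 CPM in sham capsules (SD, n = 4 each). The whole bipolar list averaged 221 ± 51.8 and 192 ± 46.0 CPM, so Trpm1 was the largest part of that sum. Grm6, another gene of the list, averaged 4.74 and 4.39 CPM. The ganglion cell list of 12 genes summed to 22.4, 84.02, 68.4 and 72.3 CPM in ASC libraries 1 to 4, against 27.9, 36.2, 59.9 and 14.04 CPM in sham libraries 1 to 4. The amacrine and horizontal list of 12 genes summed to 36.2, 105, 75.2 and 87.05 CPM in ASC libraries 1 to 4, against 54.5, 45.7, 101 and 35.3 CPM in sham libraries 1 to 4. In all 3 lists ASC library 1 and sham library 4 were the lowest. Of these lists edgeR tested 12, 11 and 8 genes and called 0 of each. At an unadjusted p under 0.05 the counts were 0, 1 and 0, and after adjustment DESeq2 called 0, 1 (Pou4f1, log2 fold change 1.77) and 0, and limma-voom 0 of each. Over all tested genes 14.7% had an unadjusted edgeR p under 0.05 and DESeq2 called 3.74%. The abundant bipolar genes Trpm1 and Prkca had log2 fold changes of 0.24 and -0.05. The most abundant ganglion cell genes Nefl, Thy1 and Nefm had values of 0.64, 0.66 and 1.15, and the amacrine genes Slc6a9 and Gad1 had values of 0.46 and 0.51. Onecut1, Lhx1, Th and Chat, which define horizontal and amacrine classes, were at 0 in at least 1 library each. Bipolar genes summed to 16.4, 16.2, 14.1 and 15.3 CPM in ASC libraries 1 to 4, against 38.3, 33.4, 13.6 and 16.5 CPM in sham libraries 1 to 4 per 100 rod CPM. That proportion, in which Trpm1 again weighs most, was highest in sham libraries 1 and 2. Its part in the photoreceptor results was not tested.

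Tissues beside the lens gave other profiles. The pigment epithelium and melanin list of 14 genes summed to 396, 678, 693 and 1212 CPM in ASC libraries 1 to 4, against 282, 293, 359.8 and 142 CPM in sham libraries 1 to 4. All 4 ASC sums were above all 4 sham sums. Of its 13 tested genes edgeR called 0 and counted 10 at an unadjusted p under 0.05, DESeq2 called 8 and limma-voom 0. Of all tested genes 14.7% had an unadjusted edgeR p under 0.05, and DESeq2 called 3.74%. The same shares apply to the lists below. Its most abundant genes Dct, Rgr and Ttr had log2 fold changes of 1.74, 1.67 and 1.71. The red cell list of 5 genes summed to 307, 120.3, 73.8 and 369 CPM in ASC libraries 1 to 4, against 60.8, 62.7, 39.98 and 51.3 CPM in sham libraries 1 to 4, also without overlap. EdgeR called 0 of 5 and counted 5 at an unadjusted p under 0.05, and DESeq2 called 4 and limma-voom 0. The globin genes Hbb-bs, Hba-a1 and Hbb-bt, the most abundant of that list, had log2 fold changes of 2.06, 1.94 and 2.38, and their near-identical copies make the split of counts between them uncertain. Of 6 tested corneal epithelium genes edgeR called 3, the keratins Krt5, Krt12 and Krt6a, where it called 1.02% of all tested genes. All 3 were higher in ASC capsules, with log2 fold changes of 3.52, 3.19 and 2.79, but their levels were low. In sham libraries Krt5 lay between 0.446 and 1.73 CPM, Krt12 between 0 and 0.981 CPM and Krt6a between 0.0743 and 0.561 CPM. In ASC libraries the ranges were 4.01 to 16.7, 2.93 to 6.30 and 0.922 to 1.97 CPM. Krt13, Krt15 and Aldh3a1 were not called, with log2 fold changes of 2.14, 0.56 and 0.29. The calls of Krt5 and Krt6a were lost in 6 of the 8 fits that left out 1 library (ASC library 1, 3 or 4 or sham library 2, 3 or 4), with adjusted p up to 0.135 and 0.138. That of Krt12 was lost in 5 (ASC library 1, 3 or 4 or sham library 2 or 3), with adjusted p up to 0.130. The list sum was 576, 353, 588 and 957 CPM in ASC libraries 1 to 4, against 568, 604, 388 and 397 CPM in sham libraries 1 to 4. Most of that sum was Aldh3a1, which averaged 591 ± 241 CPM in ASC capsules and 482 ± 111 CPM in sham capsules (SD, n = 4 each). Sham library 3, the highest in photoreceptor genes, was not high in red cell or corneal genes. In the pigment epithelium and melanin list it was the highest sham library, at 359.8 CPM, but below every ASC library. The part of these tissues in the photoreceptor levels was not tested.

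The lens fibre list of 11 genes summed to 22638, 6949, 16109 and 13495 CPM in ASC libraries 1 to 4, against 8581, 5884, 6757 and 10856 CPM in sham libraries 1 to 4. ASC library 1 was highest, the same library that was lowest among ASC libraries for 32 of the 34 genes and highest for Opn1sw. Of this list Hmx1, a homeobox factor, was the single gene past the edgeR threshold. Hmx1 fell in ASC capsules (log2 fold change -0.57). In that list edgeR counted 5 of 11 genes at an unadjusted p under 0.05, where 14.7% of all tested genes passed. The median log2 fold change of the list was 0.83. Not all fibre genes moved: Mip, the most abundant of the list, had 0.07, and Gja3 and Grifin had 0.04 and 0.03. DESeq2 called 5, which were Hmx1 and, higher in ASC capsules, Lgsn (DESeq2 log2 fold change 2.96), Birc7 (3.60), Bfsp1 (1.54) and Dnase2b (2.96), and limma-voom called Hmx1, Lgsn and Birc7. The call of Hmx1 was lost without ASC library 1 or 3 or sham library 1, 2 or 4, with adjusted p up to 0.0889. The lens epithelium list summed to 13970.3 ± 2393 CPM in ASC capsules and 13542 ± 909 CPM in sham capsules (SD, n = 4 each). EdgeR called 0 of its 7 tested genes, with 0 at an unadjusted p under 0.05, and neither DESeq2 nor limma-voom called any. Its most abundant genes Col4a1, Igfbp7 and Cp had log2 fold changes of 0.01, 0.13 and 0.11. The Müller glia list, several of whose genes such as Vim the lens also expresses, summed to 8059 ± 1027 CPM in ASC capsules and 7119.6 ± 562 CPM in sham capsules. EdgeR called 0 of its 12 genes, with 1 at an unadjusted p under 0.05, and DESeq2 and limma-voom called 0. Its most abundant genes Vim, Dkk3 and Apoe had log2 fold changes of 0.16, 0.07 and 0.45.

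**Figure D5:**
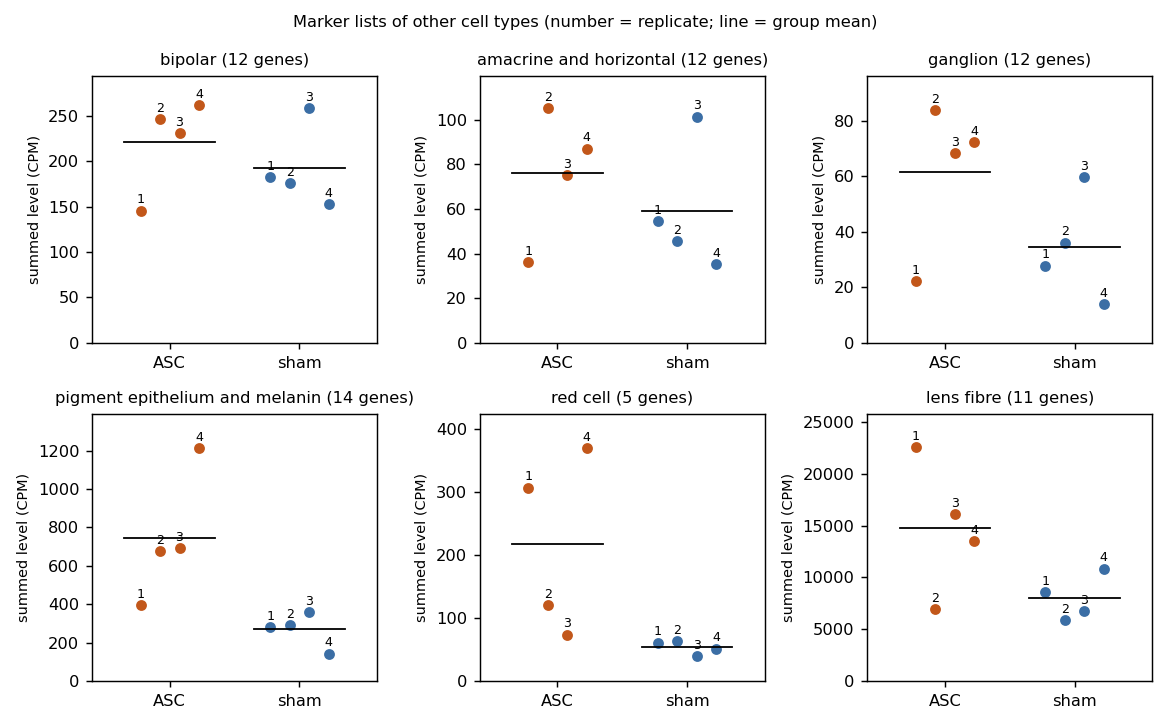
Summed CPM (y axes) of marker lists of other cell types in each ASC and sham library, numbered by replicate, with lines at the group means. Pigment epithelium and red cell sums are higher in all 4 ASC libraries, whereas the bipolar, amacrine and horizontal, and ganglion sums overlap between the groups.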

How the data were processed

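Poly-A RNA of lens capsules was measured in 4 ASC and 4 sham libraries. The authors deposited 1 table of whole-number read counts per gene, not normalized. CASAVA, fastp, HISAT2 2.0.5 and featureCounts 1.5.0-p3 are listed, per the submitters' processing notes. No build, annotation, strand setting or rule for reads matching several genes is stated in the labels.

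Counts of all 8 libraries were fitted with edgeR 4.0.16 in R 4.3.3 (filterByExpr, TMM, robust quasi-likelihood F test, no covariate), with Benjamini-Hochberg adjustment over the 15857 genes tested and a threshold of 0.05. DESeq2 1.42.0, limma-voom (limma 3.58.1), other scalings and filters, a replicate block and leaving out each library were alternatives. Levels are CPM, with SD over 4 libraries, and levels per kilobase used merged exon lengths of GENCODE M21. Symbols were matched for 54409 of 54532 identifiers. No pair of libraries agreed within sampling noise. Reads carried no molecular identifiers, so precision refers to reads.

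The genes and lists were chosen with earlier results of these data known, so sums and proportions were described without a test. All 34 genes were named, and from each other list the genes past the threshold or else the 3 with the highest mean CPM, of which some are not reported here. A planned search for the genes nearest the rod sum was not made, because that sum spanned 3.99-fold and the rule needed 4-fold.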

Additional observations from a re-analysis of the deposited data

Results flagged for a closer look

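Within groups of 4 libraries, the highest or lowest value was set against the others by Dixon's 95% critical value. Of 144 such groups 9 were past it, and chance passes about 1 in 20. Sham library 3 stood above the other sham libraries for Rbp3 at 375 CPM, Syp at 46.9 CPM and Gnb3 at 29.1 CPM. Of the summed levels, 0 were past the critical value in sham library 3. ASC library 1 stood below the other ASC libraries for Nrl at 58.9 CPM, Rom1 at 74.7 CPM and the synaptic sum at 62.1 CPM. The Opn1sw to Opn1mw ratio of ASC library 1 was 8.14, above the other ASC libraries. In ASC library 3 Opn1mw was 0.544 CPM per 100 rod CPM, above the other ASC libraries. In sham library 1 the cone genes without Opn1sw summed to 5.17 CPM per 100 rod CPM, above the other sham libraries.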

How the results depend on the processing

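The count of 0 of 34 genes past the threshold was the same under every alternative run. The median log2 fold change of the 34 genes was 0.50, and it ranged from 0.30 without sham library 1 to 0.99 without sham library 3. With library totals alone it was 0.36, where the median of all tested genes moved to -0.12, and 29 genes in place of 24 were highest in sham library 3. Over all tested genes, 162 passed with edgeR, 593 with DESeq2 and 712 with no low-count filter, and 56 to 228 when 1 library was left out. For the other photoreceptor genes DESeq2 called 2, the fit with no low-count filter 2, and the fits without 1 library 0 to 2. For the other synaptic genes the fit with no low-count filter called 2, and the fits without 1 library 0 to 1. The cause of these differences was not tested. The corneal list gave a log2 ratio of mean sums of 1.90 without its most abundant gene.

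The groups share replicate numbers, but correlations of same-numbered libraries ran from -0.0897 to 0.217, and ASC library 1 correlated best with sham library 4, so the numbers were not taken as pairs. With the replicate block 169 genes passed over all genes and 0 of the 34, of which 15 had an unadjusted p under 0.05 (14.7% of all tested genes did in the same fit), and the median log2 fold change was 0.65. The lowest count of any of the 34 genes in a library was 37, so ratios of the cone opsins are the least precise.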
